A study of Mus musculus with 12 samples.

Results

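The module described here holds genes for protein translocation into the endoplasmic reticulum (ER), N-glycosylation and transport from the ER to the Golgi. Its 43 members were chosen by gene symbol from what they do, as parts of the signal recognition particle (SRP) and its receptor, the translocon, the translocon-associated protein complex (TRAP), the signal peptidase, the oligosaccharyltransferase with glucosidase I, the COPII coat and its sites, the cargo receptors or the KDEL receptors, out of 24296 symbols in the deposited table. The choice was made with earlier results of these data known. RNA of 12 livers from male C57/BL6N mice was sequenced, with 3 livers in each of 4 groups. The control group, labelled WT, received no CCl4, a solvent that injures hepatocytes. For the model group, a mixture of 1 part CCl4 and 9 parts olive oil was injected into the peritoneum over 8 weeks, 2 times a week and with 5 mL/kg of the mixture each time. Mice given silibinin, and those of the phloridzin high-dose group (40 mg/kg), received the same CCl4, and from week 5 also the drug. Silibinin is a flavonolignan of milk thistle, and phloridzin is a plant glucoside. The study asked whether phloridzin can be used against liver fibrosis, with silibinin as its positive control, and the age of the mice is not stated.

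Proteins that are secreted or sit in membranes enter the ER through the Sec61 channel, to which SRP and its receptor bring the ribosome. Inside, the signal peptide is cleaved, a glycan is joined to asparagine residues, and folded cargo leaves in COPII vesicles, while KDEL receptors return escaped ER proteins. Hepatocytes use this route for albumin, clotting factors and lipoproteins, and many of its genes respond when unfolded proteins build up in the ER.

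The values are FPKM (fragments per kilobase of transcript length, corrected for library size), summed over all transcripts of a gene. Control libraries held 105 to 109.8 M fragments, with a median of 108 M, and model libraries 83.7 to 101 M, with a median of 100 M. Silibinin libraries held 107 to 110.7 M, with a median of 110.0 M, and phloridzin libraries 98.4 to 105 M, with a median of 102 M. A log2 fold change below is a difference of group means of log2(FPKM + 1), which understates the change of a gene with a low level. A gene was called higher or lower at an adjusted p of limma under 0.05, and DE when the log2 fold change was also above 1 or below -1. Of the 43 members, 41 had a mean of at least 0.5 FPKM and were among the 13158 genes tested. Spcs3 and Kdelr3 were under that level.

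All 12 libraries carried the hepatocyte markers, led by albumin (Alb), whose group means lay between 12700 and 22255 FPKM. The hepatocyte marker Ttr was uneven, at 39.8, 2331 and 759 FPKM in the control livers and 10.3, 2530 and 1837 FPKM with phloridzin. Within groups, values of different livers were correlated across genes with r between 0.918 and 0.954, and no pair was a copy. Phloridzin replicate 1 stood apart, with the lowest r to the rest of its group (0.922 and 0.918). The main counts of members called, and the values of some members, are given with and without it. FPKM carry no correction for the composition of a library. Over all tested genes the median log2 fold change was 0.34 for model livers against control livers, and -0.15 for silibinin and -0.11 for phloridzin livers against model livers, and median-of-ratios scaling moved these medians to 0.01, 0.01 and 0.03. Many changes are therefore also given as scaled values, relative to that shift. All genes split into 4094 higher and 500 lower in the model group as deposited, and into 1727 and 1547 after scaling. With silibinin the split was 345 and 1504 (732 and 850 scaled), and with phloridzin 329 and 1362 (621 and 823 scaled).

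The summed level of the 43 members was 1236, 1178 and 1116 FPKM in the control livers and 2066, 1970 and 2138 FPKM in the model livers. It was 1149, 1203 and 1085 FPKM in the silibinin livers and 1418, 1057 and 969.7 FPKM in the phloridzin livers. Every model liver was above every other liver, and the other groups overlapped each other. This order was not found in every role. The COPII coat summed to 204 to 260 FPKM in control, 246 to 286 in model, 232 to 250 in silibinin and 187 to 282 in phloridzin livers. The signal peptidase sum was higher in control replicate 2 (74.1 FPKM) than in model replicate 2 (68.1 FPKM). In the remaining roles every model liver was above every other liver. As a share of all FPKM with a gene symbol, the module took 0.357% to 0.408% in the control group, 0.650% to 0.752% in the model group, 0.358% to 0.385% in the silibinin group and 0.311% to 0.429% in the phloridzin group. In whole liver, a change in the number of cells of a type and a change in RNA per cell cannot be told apart.

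In the model group against the control group, 26 of 41 members were called higher and 0 lower by limma, and the median log2 fold change was 0.78. Of all tested genes, 31.1% were called higher and 3.8% lower. Of 110 other genes of the pathway that were tested, 34 were called higher and 2 lower. As the members were chosen with earlier results known, shares of all genes give a scale and are no test. Of the members 28 had an unadjusted p under 0.05 (45.8% of all genes). Run on recovered fragment numbers, voom of limma gave 26 higher (30% of all genes) and 0 lower. The voom fit had no correction for library composition either, and its median log2 fold change over all genes was 0.45. Members that were DE numbered 10 (9.42% of all genes). The model livers were all above the control livers in 29 of 41 members (45.1% of all genes). After scaling, 11 members were called higher (13.2% of all genes), 2 were DE (4.02% of all genes), 17 had an unadjusted p under 0.05 (37.5% of all genes) and the median was 0.35. These 11, all of them among the 26, were Srp19, Srprb, Sec61a1, Ssr1, Ssr2, Ssr3, Stt3a, Ostc, Sec31a, Tmed2 and Kdelr2. Of the 26 calls, 17 held with each of the 12 livers left out in turn.

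With silibinin against the model group, 23 members were called lower (11.4% of all genes) and 0 higher by limma, with a median log2 fold change of -0.89, while 31 had an unadjusted p under 0.05 (29.2% of all genes) and voom gave 22 lower (10.7% of all genes) and 0 higher. Members that were DE numbered 14 (3.25% of all genes). The silibinin livers were all below the model livers in 32 of 41 members (27.8% of all genes). Scaling left 17 called lower (6.5% of all genes), 6 DE (1.84% of all genes), 25 with an unadjusted p under 0.05 (26.5% of all genes) and a median of -0.69, and ended the calls of Srp72, Dad1, Stt3b, Sec13, Sec23a and Sec24d. Each of 14 calls held whichever liver was left out.

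With phloridzin against the model group, 21 members were called lower (10.4% of all genes) and 0 higher by limma, the median log2 fold change was -0.78, 31 had an unadjusted p under 0.05 (27.8% of all genes), and voom gave 21 lower (9.21% of all genes) and 0 higher. By the rule for DE, 14 members were lower (2.92% of all genes). All phloridzin livers were below all model livers in 28 of 41 members (22.4% of all genes). Scaling left 17 called lower (6.29% of all genes) with a median of -0.60, 9 DE (1.83% of all genes) and 26 with an unadjusted p under 0.05 (27.1% of all genes), and ended the calls of Sec11c, Dad1, Sec13 and Kdelr1. A fit of only these 2 groups called 11 lower (4% of all genes), 9 of them DE (2.37% of all genes). Without phloridzin replicate 1, 25 members were called lower (13% of all genes), 19 of them DE (3.97% of all genes). Both drug comparisons use the same 3 model livers as the first comparison, so the 3 counts are not independent.

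**Figure D1:**
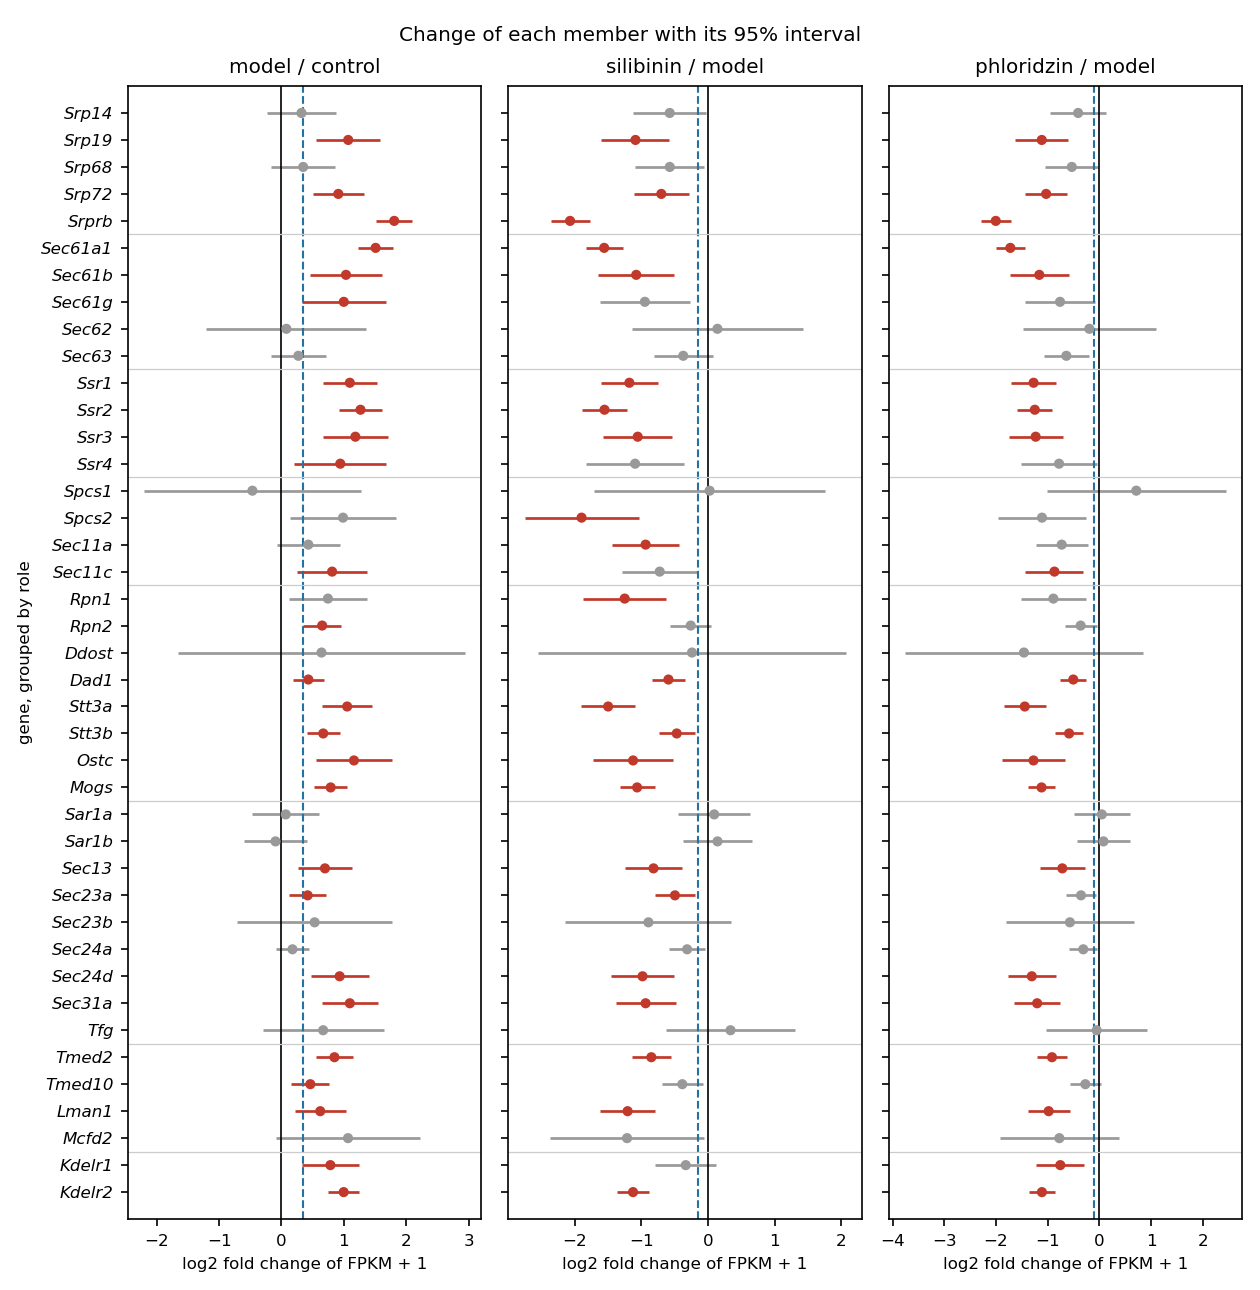
Log2 fold change of FPKM + 1 for the 41 tested members in 3 comparisons, grouped by role, with 95% confidence intervals from limma. Red marks an adjusted p under 0.05 and the dashed line the median of all tested genes (0.34, -0.15 and -0.11). The intervals of Ddost, Spcs1 and Sec62 are the widest.

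SRP binds the signal peptide as it leaves the ribosome, and its receptor sits in the ER membrane. Srprb, the membrane-anchored beta subunit of that receptor, lies at chr9:103188032-103202137 on the minus strand (build GRCm38). Its level was 7.38, 6.53 and 6.83 FPKM in the control livers, 26.2, 26.5 and 27.4 FPKM in the model livers, 5.66, 6.22 and 4.99 FPKM with silibinin and 7.27, 5.32 and 5.28 FPKM with phloridzin. The model livers stood far above all others, the silibinin livers lay below all control livers, and the phloridzin livers overlapped both. The log2 fold change was 1.81 ± 0.13 (standard error, 3 livers a group) in the model group against control (limma adjusted p 1.8e-05), which was the largest rise among the members both as deposited and scaled (1.39). It was -2.07 with silibinin (limma adjusted p 1.2e-05) and -2.00 with phloridzin (limma adjusted p 1.4e-05) against the model group. The annotated gene Gm20425 overlaps Srprb on the same strand and ranged from 0 to 614 FPKM over the livers, so the share of reads between them is uncertain. Gm20425 was at 0 in control replicate 3, model replicate 1 and silibinin replicates 1 and 3, where Srprb was at 6.83, 26.2, 5.66 and 4.99 FPKM, and the sharing of reads was not tested.

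Promoters, from 250 bases before to 50 bases after the start, were taken from RefSeq (build GRCm38.p6) and matched 33 of the 43 members with 36 promoters. They were searched on both strands for letters tied to the unfolded protein response in the literature. The ER stress response element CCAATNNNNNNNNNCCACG was in 0.119% of all 32851 promoters and its second form ATTGGNCCACG in 0.0365%, and neither was in a member's promoter. The element TGACGTGG was in 0.676% of all promoters and in those of Sec23a, Sec24d and Kdelr3. The end CCACG, which both stress elements hold and which TGACGTGG holds on its other strand (CGTGG), was in 32.8% of all promoters and in 21 of the 36. The promoter of Srprb, chr9:103202016-103202315 on the minus strand, is shown because the gene had the largest rise, with CCACG or CGTGG in capitals. It held 3 such matches next to each other, and a match is a description of letters only.
Srprb: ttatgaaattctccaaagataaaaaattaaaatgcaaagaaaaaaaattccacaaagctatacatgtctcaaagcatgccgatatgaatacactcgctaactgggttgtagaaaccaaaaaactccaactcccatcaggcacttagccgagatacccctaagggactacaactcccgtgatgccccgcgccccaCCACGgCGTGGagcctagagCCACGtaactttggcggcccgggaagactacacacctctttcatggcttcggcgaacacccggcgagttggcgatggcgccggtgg

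Srp19, an SRP protein that binds the particle's RNA, was at 7.52, 6.20 and 7.44 FPKM in the control livers, 13.9, 17.4 and 16.4 FPKM in the model livers, 6.92, 6.83 and 7.07 FPKM with silibinin and 10.5, 6.78 and 4.28 FPKM with phloridzin. The model livers did not overlap any other group, and the phloridzin livers were spread around the control level. Srp19 had a log2 fold change of 1.07 in the model group (limma adjusted p 0.0056, 0.66 scaled), -1.09 with silibinin (limma adjusted p 0.011) and -1.11 with phloridzin (limma adjusted p 0.011). Srp14, which forms the part of the particle that slows translation, was at 28.1, 31.6 and 24.8 FPKM in the control livers, 35.2, 28.9 and 43.2 FPKM in the model livers, 18.8, 25.7 and 26.4 FPKM with silibinin and 37.6, 18.2 and 26.5 FPKM with phloridzin. Model and control livers overlapped, and so did model and phloridzin livers. Srp14 had a log2 fold change of 0.32 in the model group (limma adjusted p 0.34), which lay between 0.18 and 0.46 with 1 liver left out and turned to -0.11 with scaling. Srp72, a large SRP protein, was called in all 3 comparisons as deposited, but with scaling only with phloridzin (limma adjusted p 0.11 in the model group and 0.15 with silibinin). Srp68, its partner in the particle, was called in none. The call of Srp72 with silibinin was lost without model replicate 1 or 3 or silibinin replicate 1 or 3 (limma adjusted p 0.091 to 0.11).

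Sec61a1 codes for the alpha subunit, which forms the channel itself. It was at 66.9, 57.8 and 68.4 FPKM in the control livers, 198, 174 and 183 FPKM in the model livers, 68.6, 63.5 and 55.2 FPKM with silibinin and 59.2, 53.0 and 53.9 FPKM with phloridzin. The lowest model liver was far above the highest liver of any other group, and the silibinin livers overlapped the control livers. Sec61a1 had a log2 fold change of 1.51 ± 0.13 in the model group (limma adjusted p 4.2e-05, 1.06 scaled), -1.56 with silibinin (limma adjusted p 5.4e-05) and -1.72 with phloridzin (limma adjusted p 2.8e-05). Sec61b, the beta subunit, was at 32.1, 28.2 and 30.8 FPKM in the control livers, 66.9, 58.0 and 65.0 FPKM in the model livers, 35.3, 29.7 and 24.4 FPKM with silibinin and 45.4, 19.5 and 23.9 FPKM with phloridzin. Every model liver was above all others, and phloridzin replicate 1 was the nearest to them. Sec61b had a log2 fold change of 1.03 in the model group (limma adjusted p 0.011), which became 0.60 after scaling (limma adjusted p 0.072). The falls of Sec61b with silibinin (-1.07) and phloridzin (-1.16) lost their calls without model replicate 1 or 3 or silibinin replicate 2 or 3 (limma adjusted p 0.053 to 0.077), and without model replicate 1 or phloridzin replicate 2 or 3 (limma adjusted p 0.051 to 0.059).

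Sec62 takes part in translocation after translation. It was at 7.59, 11.0 and 8.23 FPKM in the control livers, 9.10, 14.4 and 6.20 FPKM in the model livers, 10.04, 11.7 and 9.76 FPKM with silibinin and 28.9, 3.97 and 4.07 FPKM with phloridzin. The groups overlapped, and phloridzin replicate 1 was the highest of the 12 livers while the other phloridzin livers were the lowest. Sec62 had a log2 fold change of 0.08 in the model group (95% interval -1.20 to 1.36), which turned to -0.32 with scaling. Against the model group it was 0.14 with silibinin (0.33 scaled), and -0.19 with phloridzin (-0.04 scaled), which became -1.05 without phloridzin replicate 1 (limma adjusted p 0.032). The gamma subunit gene Sec61g rose with a log2 fold change of 1.00 (limma adjusted p 0.028, and 0.14 with scaling), a call that any 1 of the control or model livers ended when left out (limma adjusted p 0.050 to 0.076). Sec63, the partner of Sec62, was called in no comparison. The leading Sec63 transcript, with 64.5% of the level, is annotated as a retained intron.

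TRAP sits beside the channel and helps some signal peptides to engage it. All 4 of its genes were called higher in the model group as deposited (31.1% of all genes), and 3 of 4 after scaling (13.2% of all genes). Ssr2, the beta subunit, was at 23.5, 20.9 and 23.8 FPKM in the control livers, 61.7, 50.3 and 56.7 FPKM in the model livers, 18.8, 19.3 and 17.4 FPKM with silibinin and 29.7, 20.3 and 20.2 FPKM with phloridzin. The silibinin livers lay below all control livers and the model livers above all others. Ssr2 had a log2 fold change of 1.27 ± 0.15 in the model group (limma adjusted p 0.00031, 0.83 scaled), -1.55 with silibinin (limma adjusted p 0.00016) and -1.25 with phloridzin (limma adjusted p 0.00069). Ssr3, the gamma subunit and the most abundant TRAP gene, was at 104, 78.0 and 80.0 FPKM in the control livers, 160.0, 221 and 219 FPKM in the model livers, 104, 97.9 and 83.7 FPKM with silibinin and 122, 70.9 and 67.6 FPKM with phloridzin. The model livers did not overlap another group. Ssr3 had a log2 fold change of 1.18 in the model group (limma adjusted p 0.0038, 0.74 scaled), -1.05 with silibinin (limma adjusted p 0.015) and -1.23 with phloridzin (limma adjusted p 0.0078). Its call with silibinin was lost without model replicate 2 or silibinin replicate 3 (limma adjusted p 0.057 and 0.058).

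Ssr4, the delta subunit, was at 21.8, 14.1 and 32.3 FPKM in the control livers, 41.8, 38.9 and 46.5 FPKM in the model livers, 20.5, 24.3 and 14.4 FPKM with silibinin and 25.1, 36.2 and 15.5 FPKM with phloridzin. The model livers were above all others, with a wide spread in the control and phloridzin livers. For Ssr4, the log2 fold change of 0.94 in the model group (limma adjusted p 0.049) was called only narrowly. The call was lost without control replicate 1 or 2, any model liver, silibinin replicate 1 or 2 or phloridzin replicate 1 (limma adjusted p 0.055 to 0.17), and after scaling (0.51, limma adjusted p 0.29). With silibinin the log2 fold change of Ssr4 was -1.09 (limma adjusted p 0.053), and the gene was called lower without control replicate 2 or 3 (limma adjusted p 0.040 and 0.041) or phloridzin replicate 2 or 3 (limma adjusted p 0.041 and 0.035). Ssr1, the alpha subunit, rose from a mean of 7.88 to 17.9 FPKM, with a log2 fold change of 1.10 (limma adjusted p 0.0020, 0.68 scaled). It fell by 1.18 on the log2 scale with silibinin (limma adjusted p 0.0035) and by 1.27 with phloridzin (limma adjusted p 0.0024). Its promoter, chr13:37994159-37994458 on the minus strand, is shown as that of a TRAP gene called in all 3 comparisons, with CCACG in capitals at 2 places.
Ssr1: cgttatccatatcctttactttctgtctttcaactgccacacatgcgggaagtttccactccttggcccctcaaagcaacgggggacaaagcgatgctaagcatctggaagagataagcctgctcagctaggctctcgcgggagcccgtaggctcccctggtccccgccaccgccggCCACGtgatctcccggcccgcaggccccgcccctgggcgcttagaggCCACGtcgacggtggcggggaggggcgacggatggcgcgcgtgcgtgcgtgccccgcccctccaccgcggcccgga

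The signal peptidase cuts the signal peptide off. Sec11c, a catalytic subunit, was at 10.4, 13.0 and 16.4 FPKM in the control livers, 23.99, 22.8 and 24.3 FPKM in the model livers, 14.6, 15.4 and 12.1 FPKM with silibinin and 20.0, 11.2 and 8.68 FPKM with phloridzin. Model livers were close together and above all others. For Sec11c, the log2 fold change of 0.81 in the model group (limma adjusted p 0.031) became 0.39 with scaling (limma adjusted p 0.24), and was not called without control replicate 1 or 2 or any model liver (limma adjusted p 0.063 to 0.10). With phloridzin it was -0.87 (limma adjusted p 0.048), and only the fits without control replicate 3 or without phloridzin replicate 1 kept that call, the other 10 giving a limma adjusted p of 0.053 to 0.15. With silibinin its log2 fold change was -0.72 (limma adjusted p 0.085), called without phloridzin replicate 1 (limma adjusted p 0.017).

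Sec11a, the other catalytic subunit, was at 17.0, 28.1 and 15.9 FPKM in the control livers, 24.6, 25.5 and 30.8 FPKM in the model livers, 14.7, 16.4 and 10.3 FPKM with silibinin and 18.3, 14.0 and 15.4 FPKM with phloridzin. Control replicate 2 lay among the model livers, and both drug groups lay below them. Sec11a had a log2 fold change of 0.43 in the model group (limma adjusted p 0.17, 0.00 scaled), and 0.68 without control replicate 2 (limma adjusted p 0.034). It was -0.93 with silibinin (limma adjusted p 0.022), a call lost without model replicate 2 or 3 or silibinin replicate 1 or 3 (limma adjusted p 0.050 to 0.081). It was -0.73 with phloridzin (limma adjusted p 0.062), called without control replicate 2 (limma adjusted p 0.031). Spcs2, a subunit that assists the catalytic ones, was at 9.94, 11.5 and 13.9 FPKM in the control livers, 38.1, 16.6 and 22.1 FPKM in the model livers, 4.85, 9.31 and 4.12 FPKM with silibinin and 6.04, 16.4 and 11.9 FPKM with phloridzin. The silibinin livers were all below the control livers, and the model livers above every other liver. Spcs2 had a log2 fold change of 0.99 in the model group (limma adjusted p 0.070, and 0.039 without phloridzin replicate 1, 0.56 scaled), -1.89 with silibinin (limma adjusted p 0.0096) and -1.11 with phloridzin (limma adjusted p 0.088).

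Spcs1, a small subunit, was at 1.39, 21.4 and 1.67 FPKM in the control livers, 2.82, 2.70 and 2.83 FPKM in the model livers, 2.20, 1.32 and 6.70 FPKM with silibinin and 2.32, 9.30 and 6.01 FPKM with phloridzin. Control replicate 2 was the highest of the 12 livers and the other control livers were low. For Spcs1, the log2 fold change of -0.47 in the model group (limma adjusted p 0.67, -0.79 scaled) was one of 2 below 0 in that comparison as deposited, beside Sar1b, and turned to 0.58 without control replicate 2 (limma adjusted p 0.43). Spcs3, which is needed for the activity of the complex, was at 0.0384, 0.109 and 0.0132 FPKM in the control livers, 0.417, 0.478 and 0.216 FPKM in the model livers, 0.0162, 0.0729 and 0.0603 FPKM with silibinin and 0.638, 0.441 and 0.123 FPKM with phloridzin. Its model livers were above the control and silibinin livers and overlapped the phloridzin livers, and its mean was under the 0.5 FPKM set for testing.

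The oligosaccharyltransferase moves a glycan from its lipid carrier to the protein. Stt3a codes for the catalytic subunit of the form that works at the translocon. It was at 31.9, 30.8 and 25.1 FPKM in the control livers, 58.6, 60.6 and 65.6 FPKM in the model livers, 17.0, 27.2 and 20.5 FPKM with silibinin and 26.7, 19.2 and 20.8 FPKM with phloridzin. All model livers were above all others, and both drug groups overlapped the control livers at their upper end only. Stt3a had a log2 fold change of 1.05 ± 0.18 in the model group (limma adjusted p 0.0018, 0.62 scaled), -1.50 with silibinin (limma adjusted p 0.00062) and -1.44 with phloridzin (limma adjusted p 0.00080). Stt3b, the catalytic subunit of the form that can act after translocation, rose by less, with a log2 fold change of 0.67 (limma adjusted p 0.0023, 0.23 scaled). It fell by 0.47 with silibinin (-0.26 scaled), a call that any 1 of the model or silibinin livers ended when left out (limma adjusted p 0.055 to 0.085), and by 0.58 with phloridzin (limma adjusted p 0.011).

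The ratio of Stt3a to Stt3b in FPKM, which does not change with the scaling of a library, was 0.930, 0.848 and 0.849 in the control livers and 1.13, 1.14 and 1.18 in the model livers. It was 0.448, 0.705 and 0.527 in the silibinin livers and 0.657, 0.567 and 0.646 in the phloridzin livers. The ratio was thus highest in every model liver and lower in each drug-treated liver than in each control liver. The pair was singled out after its values were seen, and the ratio was not tested. Other pairs did not share this order. Sec24d over Sec24a was 1.84 in silibinin replicate 3, above model replicate 3 (1.45) and the control livers (0.857 to 1.20). Sec61a1 over Sec61b was highest in the model livers (2.81 to 2.99), but in phloridzin replicate 2 (2.72) it was above the control livers (2.05 to 2.22).

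Ostc, which links the Stt3a form to the channel, was at 38.6, 39.3 and 40.2 FPKM in the control livers, 82.1, 93.3 and 93.1 FPKM in the model livers, 44.1, 48.4 and 31.1 FPKM with silibinin and 61.2, 29.4 and 26.6 FPKM with phloridzin. The control livers were close together, the model livers above all others, and phloridzin replicate 1 between them. Ostc had a log2 fold change of 1.16 in the model group (limma adjusted p 0.0085, 0.72 scaled). With silibinin it was -1.12, a call lost without model replicate 2 or 3 or silibinin replicate 1 or 3 (limma adjusted p 0.050 to 0.082), and with phloridzin -1.27, lost without phloridzin replicate 2 (limma adjusted p 0.058). Dad1, a small subunit of both forms, was at 36.1, 30.2 and 32.7 FPKM in the control livers, 46.6, 41.6 and 46.2 FPKM in the model livers, 30.3, 28.4 and 29.3 FPKM with silibinin and 33.7, 32.4 and 28.0 FPKM with phloridzin. Every model liver was again above all others, by a smaller step. Dad1 had a log2 fold change of 0.43 in the model group (limma adjusted p 0.015, and 0.059 without control replicate 2), but -0.01 with scaling. With phloridzin it was -0.50, a call lost without model replicate 1 or 3 or phloridzin replicate 3 (limma adjusted p 0.053 to 0.064), and with silibinin -0.59 (limma adjusted p 0.0079). Scaling ended both of these calls of Dad1 (-0.38, limma adjusted p 0.051 with silibinin and -0.33, limma adjusted p 0.090 with phloridzin).

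Mogs codes for glucosidase I, which trims the first glucose of the new glycan. It rose from a mean of 15.9 to 28.2 FPKM in the model group, with a log2 fold change of 0.79 (limma adjusted p 0.00089), or 0.36 after scaling (limma adjusted p 0.076). It fell by 1.06 with silibinin (limma adjusted p 0.00033) and by 1.12 with phloridzin (limma adjusted p 0.00026). The ribophorin gene Rpn2 was called higher in the model group (0.65, limma adjusted p 0.0055) but not with scaling (0.21, limma adjusted p 0.17), and in neither drug comparison, where its log2 fold changes were -0.26 and -0.36 (-0.05 and -0.18 scaled). Rpn1, the other ribophorin gene, was called only with silibinin (-1.25, limma adjusted p 0.015), and not without model replicate 1 or silibinin replicate 1 (limma adjusted p 0.052 and 0.057). Ddost varied most, from 4.38 to 70.2 FPKM within the model group and from 1.35 to 16.2 FPKM within the phloridzin group.

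The COPII coat forms on the ER membrane once the GTPase Sar1 is loaded, with Sec23 and Sec24 as the inner and Sec13 and Sec31 as the outer layer. Sec31a was at 9.62, 6.93 and 5.90 FPKM in the control livers, 23.0, 14.3 and 14.4 FPKM in the model livers, 8.19, 9.18 and 7.72 FPKM with silibinin and 6.59, 6.26 and 7.44 FPKM with phloridzin. The model livers were above all others, and both drug groups overlapped the control livers. Sec31a had a log2 fold change of 1.10 ± 0.20 in the model group (limma adjusted p 0.0026, 0.69 scaled), -0.93 with silibinin (limma adjusted p 0.013) and -1.20 with phloridzin (limma adjusted p 0.0041). Sec24d, a cargo-binding inner coat protein, was at 1.78, 2.08 and 2.62 FPKM in the control livers, 5.76, 5.50 and 3.90 FPKM in the model livers, 1.43, 1.76 and 3.18 FPKM with silibinin and 1.19, 1.54 and 1.56 FPKM with phloridzin. All phloridzin livers were below all control livers, and the model livers did not overlap another group. Sec24d had a log2 fold change of 0.93 in the model group (limma adjusted p 0.0071, and 0.094 with scaling), -0.98 with silibinin (limma adjusted p 0.012, and 0.054 with scaling) and -1.31 with phloridzin (limma adjusted p 0.0033). Sec24a, a protein of the same kind, was called in none of the 3 comparisons, and its group means lay between 1.85 and 2.55 FPKM.

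Sec24d and Sec23a are the members with TGACGTGG in the promoter that passed the level for testing, and both were called higher in the model group as deposited and not with scaling (0.59 and -0.02). Their promoters, chr3:123267246-123267545 on the plus strand and chr12:59011968-59012267 on the minus strand, are set out with that element in capitals. The start used for Sec24d is 67330 bases from that of its leading transcript, a retained intron with 32.9% of the level, and the leading Sec31a transcript, with 31.3%, is a retained intron as well.
Sec24d: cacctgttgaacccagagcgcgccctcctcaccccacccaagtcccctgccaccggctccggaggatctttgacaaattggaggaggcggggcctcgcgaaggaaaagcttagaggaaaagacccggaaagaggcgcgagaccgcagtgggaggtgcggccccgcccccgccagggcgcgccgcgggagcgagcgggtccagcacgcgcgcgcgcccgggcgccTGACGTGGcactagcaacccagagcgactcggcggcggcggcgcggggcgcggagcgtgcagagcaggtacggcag
Sec23a: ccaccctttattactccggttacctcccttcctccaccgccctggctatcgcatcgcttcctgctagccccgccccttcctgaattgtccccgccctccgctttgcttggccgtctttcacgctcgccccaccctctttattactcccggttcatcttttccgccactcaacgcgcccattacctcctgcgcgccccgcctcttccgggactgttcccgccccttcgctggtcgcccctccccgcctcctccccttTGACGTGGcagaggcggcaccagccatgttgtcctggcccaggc

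Sec23a was called higher in the model group (0.42, limma adjusted p 0.034), and not without control replicate 1 or 3 or model replicate 2 or 3 (limma adjusted p 0.083 to 0.11). It was called lower with silibinin (-0.49, limma adjusted p 0.035, -0.28 scaled), and not without any 1 of the model livers or silibinin replicate 1 or 2 (limma adjusted p 0.056 to 0.12). The outer coat gene Sec13 was called in all 3 comparisons, with log2 fold changes of 0.70, -0.82 and -0.72, and in none of them with scaling (limma adjusted p 0.31, 0.053 and 0.081). Its call in the model group was lost without control replicate 1 or 2 (limma adjusted p 0.057 and 0.072). Its call with silibinin was lost without any model liver or silibinin replicate 2 or 3 (limma adjusted p 0.052 to 0.068). With phloridzin the call of Sec13 held without control replicate 2 or 3 or phloridzin replicate 1, and was lost in the other 9 fits (limma adjusted p 0.050 to 0.13). Sec23b and Tfg, which organises the sites where the coat forms, were called in no comparison.

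Sar1b, a GTPase with a role in the export of lipoproteins, had the highest mean of the module over all 12 livers (121 FPKM), but in the model group (113 FPKM) it was below Ssr3, Sec61a1, Tmed2, Kdelr2 and Lman1. It was at 119, 152 and 95.5 FPKM in the control livers, 109, 103 and 127 FPKM in the model livers, 115, 140 and 120 FPKM with silibinin and 151, 133 and 84.0 FPKM with phloridzin. The 4 groups overlapped. Sar1b had a log2 fold change of -0.10 in the model group (95% interval -0.61 to 0.42, limma adjusted p 0.77), and -0.54 with scaling (limma adjusted p 0.073). It turned to 0.07 without control replicate 2 (limma adjusted p 0.84). Sar1a, its paralogue, was at 35.6, 32.8 and 31.1 FPKM in the control livers, 57.7, 28.0 and 25.9 FPKM in the model livers, 39.6, 36.3 and 35.8 FPKM with silibinin and 37.0, 37.7 and 33.5 FPKM with phloridzin. Model replicate 1 was the highest of the 12 livers and the other model livers were the lowest. Sar1a had a log2 fold change of 0.07 in the model group (95% interval -0.47 to 0.61), which turned to -0.37 with scaling. Without model replicate 1 it was -0.29 against control (limma adjusted p 0.10), and Sar1a was then called higher with silibinin (0.45, limma adjusted p 0.044).

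Cargo receptors and p24 proteins pick what enters the vesicles. Tmed2, a p24 protein, was at 77.9, 74.1 and 74.9 FPKM in the control livers, 136, 138 and 137 FPKM in the model livers, 76.8, 76.1 and 74.3 FPKM with silibinin and 89.4, 67.2 and 62.7 FPKM with phloridzin. Model livers were close together and above all others, and the silibinin livers lay on the control level. Tmed2 had a log2 fold change of 0.85 ± 0.13 in the model group (limma adjusted p 0.0011, 0.41 scaled), -0.85 with silibinin (limma adjusted p 0.0027) and -0.92 with phloridzin (limma adjusted p 0.0019). Tmed10, the p24 protein that pairs with Tmed2, was at 45.7, 40.4 and 49.8 FPKM in the control livers, 59.7, 60.3 and 68.1 FPKM in the model livers, 46.6, 48.8 and 47.9 FPKM with silibinin and 62.3, 45.2 and 49.0 FPKM with phloridzin. All model livers were above the control and silibinin livers and overlapped the phloridzin livers through replicate 1. Tmed10 had a log2 fold change of 0.46 in the model group (limma adjusted p 0.026, 0.02 scaled), and was not called without control replicate 1 or 2 or model replicate 3 (limma adjusted p 0.058 to 0.090). With silibinin it was -0.38 (limma adjusted p 0.093), or -0.17 with scaling (limma adjusted p 0.45), and called only without phloridzin replicate 1 (limma adjusted p 0.040).

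Mcfd2 is the partner of the lectin Lman1, and the pair carries clotting factors V and VIII. Mcfd2 was at 19.9, 11.7 and 14.3 FPKM in the control livers, 25.3, 31.5 and 42.4 FPKM in the model livers, 28.8, 8.34 and 9.71 FPKM with silibinin and 40.8, 9.81 and 15.4 FPKM with phloridzin. Every model liver was above the control livers, and 1 liver of each drug group lay among them. For Mcfd2, the log2 fold change of 1.07 in the model group was not called (limma adjusted p 0.14, 0.64 scaled). In its leading transcript alone the direction was opposite in all 3 comparisons (-0.56, 0.69 and 1.22, none called). Lman1 rose from a mean of 77.7 to 121 FPKM, with a log2 fold change of 0.62 (limma adjusted p 0.024, 0.18 scaled), and was not called without any 1 of the control livers or model replicate 2 or 3 (limma adjusted p 0.052 to 0.074). It fell by 1.20 with silibinin (limma adjusted p 0.0022) and by 0.98 with phloridzin (limma adjusted p 0.0070).

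KDEL receptors bind ER proteins in the Golgi and send them back. Kdelr2 was at 65.1, 56.6 and 59.9 FPKM in the control livers, 110.2, 127 and 129 FPKM in the model livers, 55.6, 55.6 and 54.7 FPKM with silibinin and 58.7, 52.4 and 56.4 FPKM with phloridzin. All silibinin livers were below all control livers by a small step, and the model livers far above both. Kdelr2 had a log2 fold change of 1.00 ± 0.11 in the model group (limma adjusted p 0.00020, 0.55 scaled), -1.12 with silibinin (limma adjusted p 0.00015) and -1.11 with phloridzin (limma adjusted p 0.00018). Kdelr1 was at 25.4, 14.0 and 22.7 FPKM in the control livers, 34.1, 31.8 and 40.7 FPKM in the model livers, 27.7, 28.5 and 27.4 FPKM with silibinin and 23.95, 16.7 and 21.7 FPKM with phloridzin. The silibinin livers lay between the control and the model livers without overlap, and the phloridzin livers overlapped the control livers. Kdelr1 had a log2 fold change of 0.78 in the model group (limma adjusted p 0.015, 0.35 scaled), a call lost without model replicate 3 (limma adjusted p 0.054). With phloridzin it was -0.75 (limma adjusted p 0.039), lost without any 1 of the model or silibinin livers or phloridzin replicate 2 or 3 (limma adjusted p 0.052 to 0.14), and with silibinin -0.33 (limma adjusted p 0.33, -0.12 scaled). In its leading transcript alone, with 30.2% of the level, both drug values turned (0.47 and 0.84, neither called). Kdelr3 was listed at 0 in the control and silibinin livers, at 0.457, 0.391 and 0 FPKM in the model livers and at 0.180, 0 and 0.0144 FPKM in the phloridzin livers. Its mean was under the 0.5 FPKM set for testing.

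**Figure D2:**
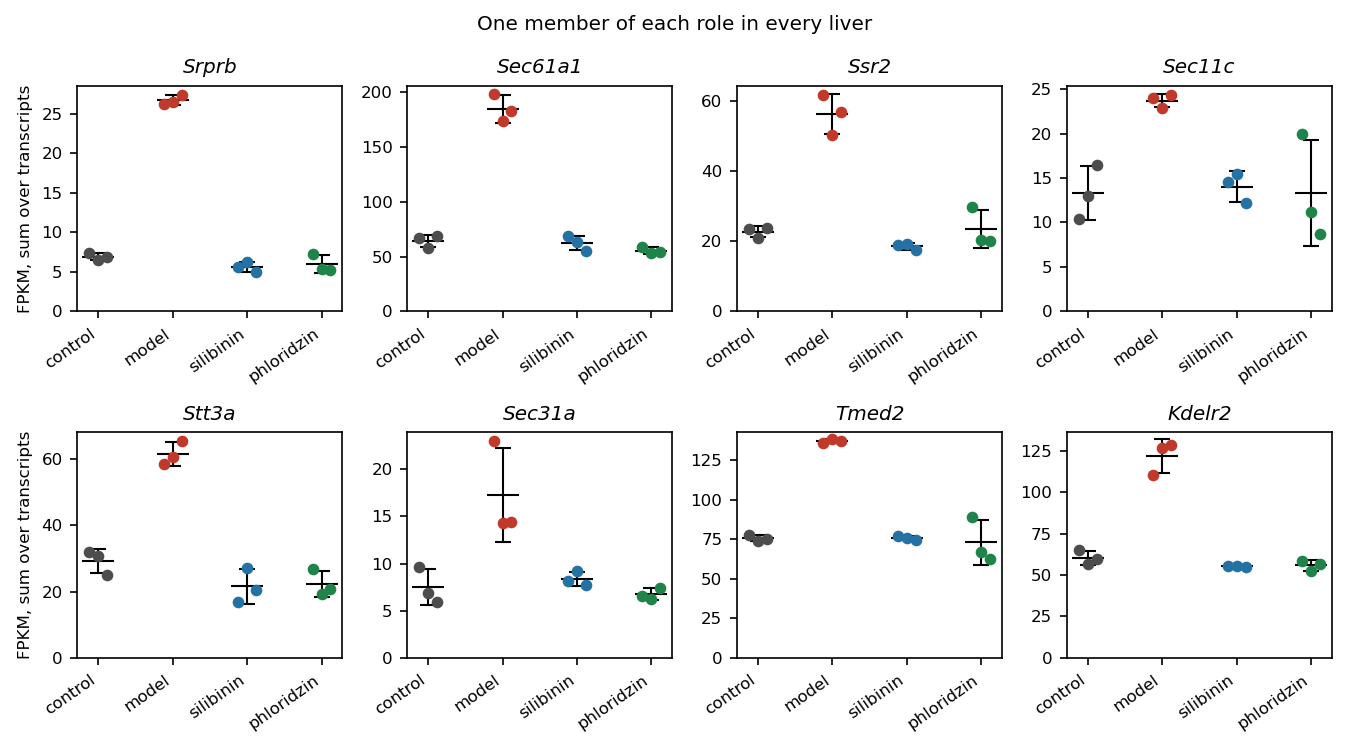
FPKM summed over transcripts in each of the 3 livers of a group, for 1 gene of each role, with the group mean (wide line) and SD (bars). In these 8 genes, which were picked by hand, every model liver lies above every other liver. Of the 41 tested members, 29 had all model livers above all control livers. The sums of the COPII coat and of the signal peptidase overlapped between these 2 groups.

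**Figure D3:**
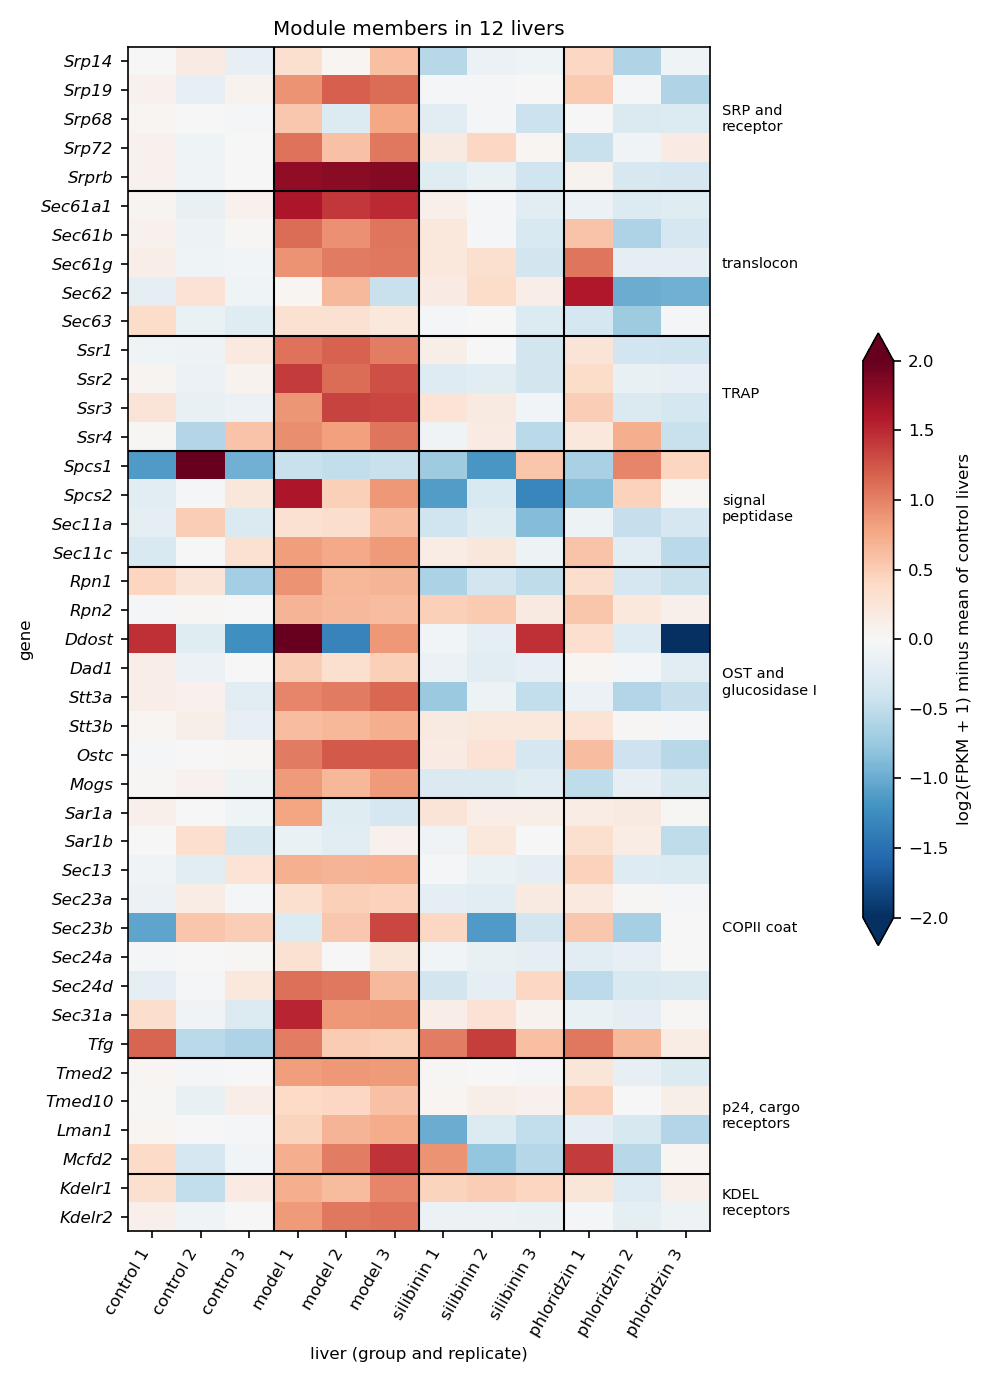
Log2(FPKM + 1) of the 41 tested members in each of the 12 livers, minus the mean of the control livers, with roles set apart by lines and colours that end at -2 and 2. The 3 model columns are darkest for Srprb, while Ddost, Spcs1 and Tfg vary within groups.

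Scaling moved all 41 members down in the model group against control. Of 41 members, 39 had a log2 fold change above 0 as deposited and 31 after scaling. The direction of Srp14, Srp68, Sec62, Sec63, Dad1, Sar1a, Sec23a and Sec24a turned. In the drug comparisons, 36 members were below 0 with silibinin both as deposited and scaled, and 38 as deposited and 37 scaled with phloridzin.

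**Figure D4:**
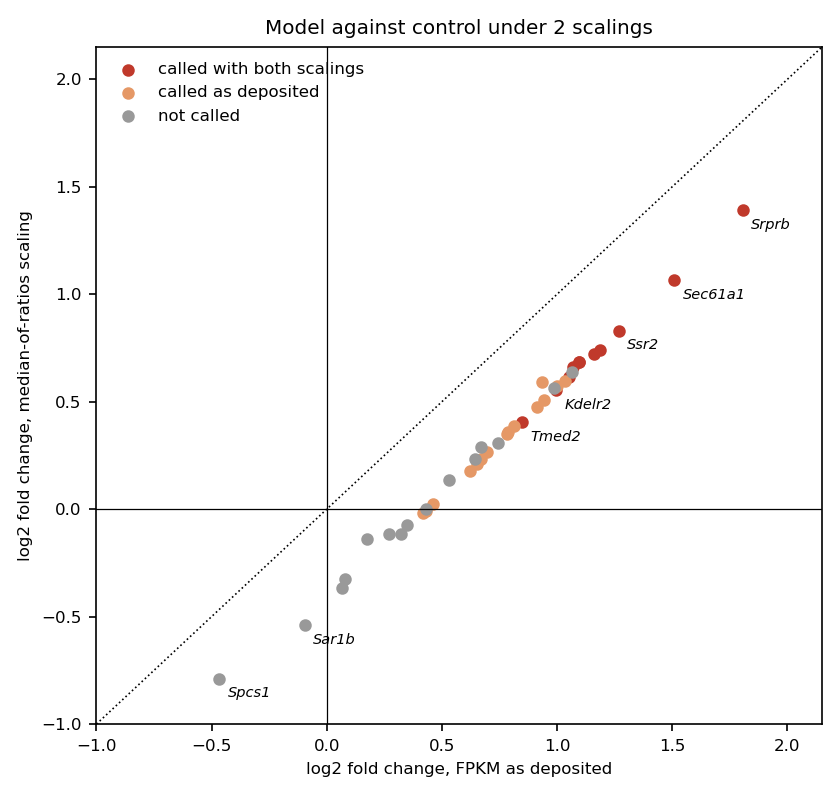
Log2 fold change of the 41 tested members in the model group against the control group, with FPKM as deposited (x axis) and after median-of-ratios scaling (y axis). The 11 members in dark red were called under both, and all points lie below the dotted line of equality.

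The drug groups were also compared with each other and with the control group. With phloridzin against silibinin, 0 members were called by limma (0.0228% of all genes in either direction) and 0 by voom, and 0 had an unadjusted p under 0.05 (3.75% of all genes). Without phloridzin replicate 1, 0 were called and 7 had an unadjusted p under 0.05 (6.1% of all genes). With silibinin against the control group, limma called 0 (5.02% of all genes in either direction) and voom 0 (6.88% of all genes), while 6 had an unadjusted p under 0.05 (21.5% of all genes) and Tfg was called higher without control replicate 1 (log2 fold change 1.59, limma adjusted p 0.038). Those 6 became 1 without silibinin replicate 1 (2130 of 13158 genes) and 8 without phloridzin replicate 1 (3239 of 13158 genes). After scaling, limma called Srprb, Stt3a and Lman1 lower there (1.18% of all genes), and 12 had an unadjusted p under 0.05 (20.7% of all genes). With phloridzin against the control group, limma called 0 (7.99% of all genes in either direction), voom 0 (9.45% of all genes) and 1 had an unadjusted p under 0.05 (24.6% of all genes), or 6 without phloridzin replicate 1 (19.7% of all genes). After scaling, limma called Srprb, Sec61a1, Stt3a and Mogs lower (1.67% of all genes), and 13 had an unadjusted p under 0.05 (22.5% of all genes). These members were singled out by their count, after their values were seen.

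Other genes of the same pathway, 111 with a symbol in the table and 110 tested, were called in the model group about as often as all genes. There 34 were called higher (31.1% of all genes) and 2 lower (3.8%), and with scaling 15 (13.2%) and 14 (11.8%). The median log2 fold change was 0.37 (-0.02 scaled), beside 0.34 (0.01 scaled) over all genes. With silibinin 28 were called lower (11.4% of all genes) and 0 higher by limma, while 41 had an unadjusted p under 0.05 (29.2% of all genes), and with phloridzin 26 were called lower (10.4% of all genes) and 2 higher (2.5% of all genes), Emc9 and Copg2. Of the roles, the COPI coat, which returns vesicles from the Golgi to the ER, had the most calls, with 10 of 15 higher in the model group (5 scaled), 9 lower with silibinin and 7 lower with phloridzin. Arfgap3, which lets the COPI coat come off, rose by 1.74 on the log2 scale (limma adjusted p 0.00037, 1.36 scaled), and Arf4 by 1.27 (limma adjusted p 0.00023, 0.83 scaled). Srpr, the alpha subunit of the SRP receptor, rose by 0.92 (limma adjusted p 0.00027, 0.48 scaled), and was lower with silibinin (-1.14) and phloridzin (-1.22). Tram1, a membrane protein beside the channel, rose by 0.86 (limma adjusted p 0.0040), a call not made with scaling (0.42). Tmed3 of the p24 family rose by 1.32 (limma adjusted p 0.00042), and Surf4, a receptor for soluble cargo, by 1.08 (limma adjusted p 0.0028, 0.63 scaled). Uso1, which tethers vesicles at the Golgi, rose by 1.78 (limma adjusted p 0.010) with a wide spread in the control livers, from 6.69 to 26.0 FPKM. The 2 genes called lower in the model group were Emc9 (-0.92, limma adjusted p 0.043) and Bcap29 (-0.45, limma adjusted p 0.045, -0.83 scaled). Of 8 further COPII genes 0 were called in the model group by limma, and 0 had an unadjusted p under 0.05 (45.8% of all genes).

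Among 12 genes of the unfolded protein response, 10 were called higher in the model group (31.1% of all genes) and 1, Creb3l3, lower (9 and 1 scaled), with a median log2 fold change of 1.32. With silibinin 10 were called lower (11.4% of all genes) and 1 higher (7 and 1 scaled), and with phloridzin 10 lower (10.4% of all genes) and 1 higher (10 and 1 scaled). Hspa5, the ER chaperone BiP, was at 130, 176 and 127 FPKM in the control livers, 471, 517 and 543 FPKM in the model livers, 84.0, 89.7 and 61.8 FPKM with silibinin and 75.0, 83.9 and 77.3 FPKM with phloridzin. Its drug-treated livers were all below the control livers. Xbp1, a transcription factor of the response, was at 27.8, 32.5 and 27.2 FPKM in the control livers and 70.3, 43.1 and 27.9 FPKM in the model livers, with a log2 fold change of 0.58 (limma adjusted p 0.14, 0.14 scaled). The part of this response in the members' changes was not tested.

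Markers of liver cell types were read beside the module, 55 genes of which 48 were tested. In the model group against control, 21 were called higher (31.1% of all genes) and 1, Cyp2e1 of hepatocytes, lower (15 and 2 scaled). With silibinin limma called 0 of them lower (11.4% of all genes) or higher and 4 had an unadjusted p under 0.05 (29.2% of all genes), and with phloridzin it called 1 lower (10.4% of all genes), Lrat of stellate cells. The summed level of 10 stellate cell and myofibroblast markers, with decorin (Dcn) the most abundant, was 76.6, 70.6 and 80.6 FPKM in the control livers and 241, 240 and 282 FPKM in the model livers. It was 244, 288 and 128 FPKM with silibinin and 342, 202 and 175 FPKM with phloridzin. For 8 macrophage markers, with Lyz2 the most abundant, the sums were 70.2, 126 and 119 FPKM in the control livers, 273, 432 and 400.4 FPKM in the model livers, 354, 435 and 309 FPKM with silibinin and 511, 497 and 246 FPKM with phloridzin. In both lists the model livers were above the control livers, as for the module, and overlapped both drug groups, where the summed level of the module did not.

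The 8 hepatocyte markers, led by Alb, summed to 19647, 24865 and 19374 FPKM in the control livers, 18142, 26076 and 29747 FPKM in the model livers, 30778, 35582 and 20522 FPKM with silibinin and 23331, 31431 and 23832 FPKM with phloridzin, and the groups overlapped. The 10 plasma cell and B cell markers, led by Igkc, summed to 4.53, 11.8 and 10.1 FPKM in the control livers, 43.6, 99.5 and 38.6 FPKM in the model livers, 21.2, 66.6 and 25.1 FPKM with silibinin and 38.5, 24.5 and 34.2 FPKM with phloridzin. The model livers were above the control and phloridzin livers and overlapped the silibinin livers. The 5 T cell and leukocyte markers, led by Ptprc, summed to 5.44, 7.54 and 6.91 FPKM in the control livers, 16.7, 21.7 and 23.0 FPKM in the model livers, 12.4, 17.0 and 16.7 FPKM with silibinin and 23.8, 19.3 and 15.2 FPKM with phloridzin. The 4 neutrophil markers, led by S100a8, summed to 18.8, 7.04 and 20.2 FPKM in the control livers, 24.6, 64.2 and 39.5 FPKM in the model livers, 17.2, 23.6 and 9.72 FPKM with silibinin and 19.1, 75.9 and 36.5 FPKM with phloridzin. Both lists were higher in the model than in the control livers, and neutrophil markers were lower again with silibinin without overlap. The 5 cholangiocyte markers, led by Spp1, summed to 11.3, 13.0 and 16.7 FPKM in the control livers, 46.2, 55.6 and 50.2 FPKM in the model livers, 47.8, 48.7 and 24.1 FPKM with silibinin and 52.7, 26.8 and 25.7 FPKM with phloridzin. The 5 sinusoidal endothelial markers, led by Clec4g, summed to 52.6, 54.0 and 64.0 FPKM in the control livers, 56.6, 72.7 and 61.8 FPKM in the model livers, 40.3, 72.4 and 28.5 FPKM with silibinin and 72.4, 79.1 and 55.5 FPKM with phloridzin. No marker was at 0 in all livers, but Tnfrsf17 was at 0 in all control livers, Timp1 and Gpnmb each in 1 control liver, S100a9 in 7 livers over all groups and Ly6g in phloridzin replicate 1. The part of these cells in the members' changes was not tested.

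**Figure D5:**
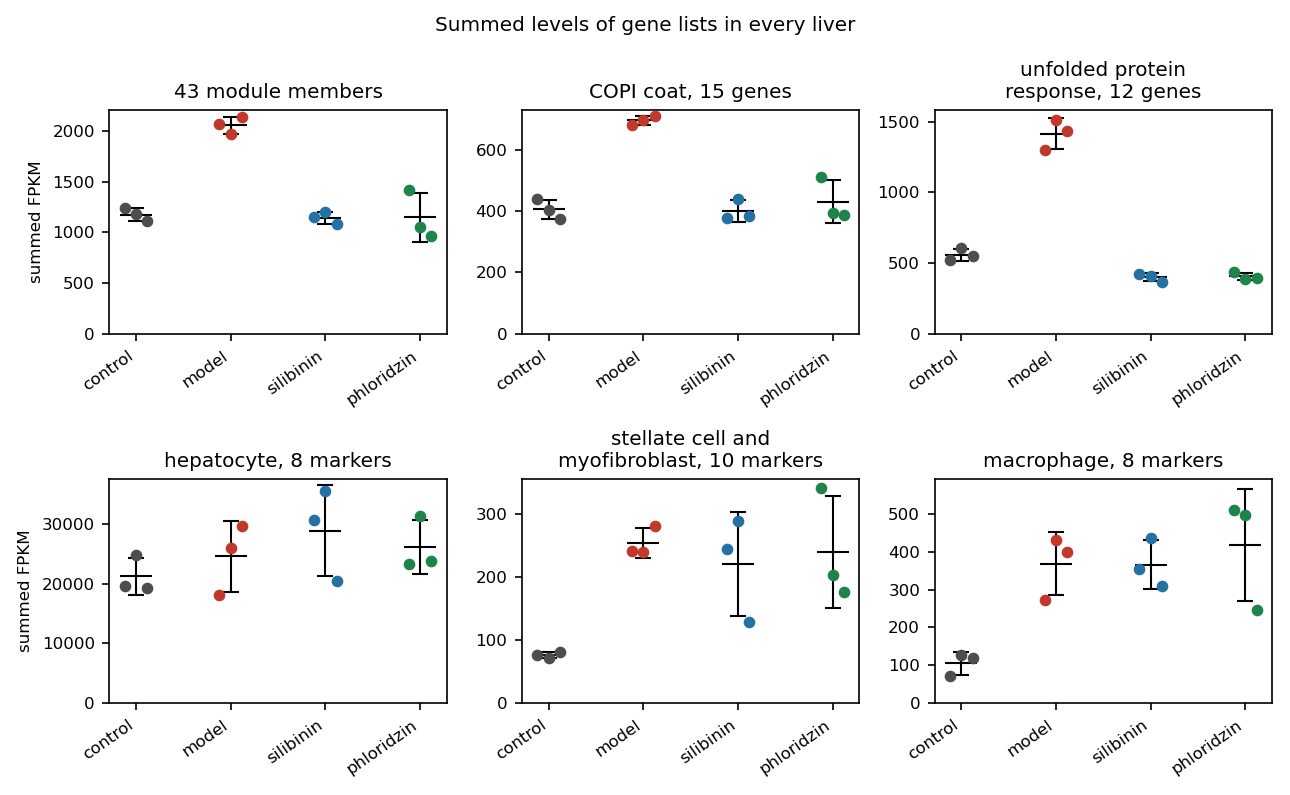
Summed FPKM of 6 gene lists in each of the 3 livers of a group, with the group mean (wide line) and SD (bars). The model livers are above all others for the module (1970 to 2138 FPKM), the COPI coat and the unfolded protein response, while the stellate cell and macrophage sums of the model livers overlap those of both drug groups.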

How the data were processed

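Total RNA of 12 livers, 3 in each of 4 groups, was sequenced on an Illumina platform. The authors deposited FPKM, 1 value for each of 169430 transcripts and liver, and their notes name bcl2fastq, FastQC 0.11.5, HISAT2 2.1.0, StringTie 1.3.3b, DESeq 1.28.0 and build mm10. The file does not name the unit. It was read from the values, since the value times the length, over transcripts of 1500 bases or more, is a whole multiple of 1 step in each liver (within 0.05 for 98.69% to 98.94% of values), and the step gives the number of fragments.

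FPKM were summed over the transcripts of each symbol. The 68303 NONCODE transcripts and 18991 assembled ones carry no symbol and were left out. The assembled ones held 25.5%, 29.8% and 29.8% of all FPKM in the control livers and 19.4% to 21.3% in the other livers. The part of this difference in the changes against control was not tested. Genes with a mean of at least 0.5 FPKM (13158) were compared as log2(FPKM + 1) by limma 3.58.1 in R 4.3.3 with a trend in the variance, all livers in 1 fit, and 2-sided p adjusted by the Benjamini-Hochberg method over all genes. With 3 livers against 3, the smallest p of a permutation test is 0.1, so none was run. The fit was tested on simulated data that held no shift in library composition, so that test does not bear on such a shift. Alternatives were another pseudocount, other filters, median-of-ratios scaling, the leading transcript, only the 2 groups compared, a replicate block, voom on recovered fragment numbers and each liver left out. Ensembl transcripts alone were also run, but they are the same transcripts as those with a symbol. A sum with overlapping NONCODE transcripts was added after the data were seen. Positions are those of the table, and 98.13% of matched Ensembl transcripts had the same position in GENCODE M21.

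The members and lists were chosen with earlier results of these data known. All members may be named. In each role, values in every liver are given for the 2 members with the largest and the 1 with the smallest absolute log2 fold change in model against control, and for those opposite to most members. Among other pathway genes, up to 3 of each role with the largest change among those called, and those called the opposite way, could be named, beside Hspa5, Xbp1 and the most abundant marker of each list. Ttr was named after its values were seen. Tables and figures used Python 3.11.15 with numpy 2.4.6, pandas 2.3.3 and matplotlib 3.10.9.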

Additional observations from a re-analysis of the deposited data

Results flagged for a closer look

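The comparisons use transcripts with a gene symbol. NONCODE transcripts without a symbol lie on the strand of 21 members and overlap them, and 8 of these sets, singled out because every model liver was above every control liver at a mean of at least 1 FPKM over all livers, hold signal that the comparisons leave out. Their mean in the model group was 48.2 FPKM at Ssr1 (30.6 in the control group), 63.5 FPKM at Lman1 (40.3), 20.6 FPKM at Sec63 (15.1) and 10.2 FPKM at Stt3b (3.41). It was 6.57 FPKM at Sec31a (2.19), 6.35 FPKM at Mcfd2 (1.09), 2.17 FPKM at Tfg (0.600) and 1.82 FPKM at Sec23a (1.02). Over all livers these transcripts stood at 318% of the named level of Ssr1, 275% of that of Sec63 and 50.2% of that of Lman1. With such transcripts added to every gene, 26 members were called higher in the model group (34.3% of all genes), 24 lower with silibinin (12.2%) and 22 lower with phloridzin (11.5%). Whether they are part of the members' own transcripts was not tested. Every model liver was above every control liver in 45.1% of all tested genes too, and the share over all NONCODE transcripts was not counted.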

How the results depend on the processing

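The 12 counts of members (called and DE in 6 comparisons) stayed within 1.5 times their values under the leading transcript, the pseudocount of 0.1, both other filters, voom, the replicate block and added NONCODE transcripts. Ensembl transcripts alone were no separate test, since all 82136 transcripts with a symbol are Ensembl transcripts and the fit was the same. With the replicate block, 25 members were called higher in model against control (29.7% of all genes), 21 lower with silibinin (10.5%) and 19 lower with phloridzin (9.14%) against model, and 0 in the other comparisons. Livers with the same replicate number were not alike (median r 0.004 over 18 pairs with the same number). These numbers follow the order of the samples. The deposited column names carry other numbers, and a pairing by those was not examined. Median-of-ratios scaling gave 11 called and 2 DE in model against control, 6 DE with silibinin, 9 DE with phloridzin, and 3 and 4 called lower in silibinin and phloridzin against control. The fit of only 2 groups, with fewer livers for the spread, gave 11 called and 9 DE with phloridzin. With 1 liver left out, the counts called and DE ranged from 19 to 27 and 8 to 12 in model against control, 16 to 26 and 12 to 15 with silibinin, 16 to 25 and 12 to 19 with phloridzin, and 0 to 1 and 0 to 1 in silibinin against control, and stayed at 0 in phloridzin against silibinin and against control, while 23.9% to 35.3% of all genes were called higher in model against control, and 6.97% to 13.7% lower with silibinin and 5.55% to 13% lower with phloridzin. Calls in either direction covered 1.02% to 9.61% of all genes in silibinin against control and 2.79% to 9.74% in phloridzin against control. Of all genes, 8.6% to 9.92% were DE and higher in model against control. DE and lower were 2.73% to 3.39% with silibinin and 2.42% to 3.97% with phloridzin against model. For log2 fold changes of the members whose values in every liver are given (model against control unless stated), scaling reversed Srp14 (-0.11), Sec62 (-0.32), Dad1 (-0.01) and Sar1a (-0.37). The leading transcript reversed Sec62 (-0.23, and 0.07 with phloridzin), Sec11a (-0.21), Sar1a (-0.46), Mcfd2 (-0.56, 0.69 with silibinin and 1.22 with phloridzin), Kdelr1 (0.84 with silibinin and 0.47 with phloridzin) and Spcs1 with silibinin (-0.0029), which the pseudocount of 0.1 reversed too (-0.04). With 1 liver left out, Sec62 ranged from -0.21 to 0.34, with silibinin -0.12 to 0.43 and with phloridzin -1.05 to 0.24, Spcs1 from -1.03 to 0.58 and with silibinin -0.47 to 0.39, Sar1a from -0.29 to 0.27, with silibinin -0.11 to 0.45 and with phloridzin -0.16 to 0.41, and Sar1b from -0.26 to 0.07 and with phloridzin -0.09 to 0.33. The cause of these changes was not tested. Spcs3 and Kdelr3 were under the mean of 0.5 FPKM set for testing, and only the fit without that filter held all 43 members.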

Other observations

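Srprb and Gm20425 overlap on the same strand and the table gives no reads, so reads from where they overlap cannot be told apart. With 3 livers in a group, intervals are wide for members that vary within groups, such as Ddost, Spcs1, Sec62, Sec23b and Mcfd2, and an uncalled member is not shown to be unchanged. Levels are of RNA in whole liver and say nothing of protein. Phloridzin replicate 1 was near the model livers in several members, among them Sec61g (29.0 FPKM, against 25.6 to 28.4 FPKM in the model group), and the other phloridzin livers were not (11.5 and 11.6 FPKM).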
